A study of Mus musculus with 4 samples.

Results

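The 7 genes described here serve the uptake, binding and activation of long-chain fatty acids, and were followed in the intestinal mucosa of A/J and C57BL/6J mice on a high-fat or a low-fat diet. They make up a list chosen by name, with earlier results of these data known, namely Cd36, Slc27a2, Slc27a4, Fabp1, Fabp2, Acsl5 and Dbi. All 7 were found among the 12393 genes of the array. The array's annotation gives them 13 of its 22690 probe sets, each naming 1 gene only, and all 13 are described. Male mice at 10 weeks of age formed 4 groups of 6 mice, A/J on high-fat, A/J on low-fat, C57BL/6J on high-fat and C57BL/6J on low-fat, each fed its diet for 2 weeks. A/J is an inbred strain known to resist obesity on a fatty diet, and C57BL/6J is an inbred strain known to be prone to it. RNA of 2 mice of average weight was pooled per group and put on 1 Affymetrix Mouse Expression Array 430A, so no group has a replicate, and the spread between mice is unknown.

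Long-chain fatty acids released from dietary fat enter the enterocyte through its brush border, are bound in the cytosol by small binding proteins, and are joined to coenzyme A before they are rebuilt into triglyceride or burnt. CD36 is a membrane glycoprotein that binds and takes up long-chain fatty acids, and the Slc27 genes encode fatty acid transport proteins, most of which also activate very long chain fatty acids. Fabp1 and Fabp2 encode the liver and the intestinal fatty acid binding proteins, both abundant in the absorptive cells of the small intestine. Acsl5 is a long-chain acyl-CoA synthetase of the same cells, and Dbi encodes the acyl-CoA binding protein, which holds the activated product. Several genes of this route are known targets of PPAR-alpha, a nuclear receptor that binds fatty acids and acts on DNA as a partner of RXR. The site it is known for is DR1, a direct repeat of the hexamer AGGTCA with a single base between the copies.

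The promoter windows of 3 members are printed because they hold the letters of such a site or of its hexamer, and because 2 of them belong to the members that differed most between the arrays. They are RefSeq sequences of GRCm38.p6, an assembly of C57BL/6J, and run from 250 bases before to 50 after an annotated start. The A/J sequence was not used here. The Fabp1 window is chr6:71199629-71199928 on the plus strand, with DR1 in capitals. The Slc27a2 window is chr2:126552774-126553073 on the plus strand, and the Cd36 window is chr5:17835847-17836146 on the minus strand, each with its hexamer in capitals. Capitals read TGACCT at the hexamers because the match lies on the strand opposite to the one printed. The Cd36 start used, at position 17835896, lies inside the annotated gene, which spans 17781690 to 17888959.
Fabp1: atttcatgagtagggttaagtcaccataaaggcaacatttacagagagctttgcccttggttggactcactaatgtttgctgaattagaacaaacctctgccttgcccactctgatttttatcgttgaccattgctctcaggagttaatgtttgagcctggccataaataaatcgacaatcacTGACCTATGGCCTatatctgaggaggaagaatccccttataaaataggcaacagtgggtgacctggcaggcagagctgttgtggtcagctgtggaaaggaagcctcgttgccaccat
Slc27a2: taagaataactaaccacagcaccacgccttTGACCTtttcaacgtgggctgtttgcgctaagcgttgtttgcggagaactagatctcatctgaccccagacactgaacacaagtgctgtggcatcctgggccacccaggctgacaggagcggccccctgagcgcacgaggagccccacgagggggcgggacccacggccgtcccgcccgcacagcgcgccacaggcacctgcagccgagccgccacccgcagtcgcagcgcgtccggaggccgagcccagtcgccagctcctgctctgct
Cd36: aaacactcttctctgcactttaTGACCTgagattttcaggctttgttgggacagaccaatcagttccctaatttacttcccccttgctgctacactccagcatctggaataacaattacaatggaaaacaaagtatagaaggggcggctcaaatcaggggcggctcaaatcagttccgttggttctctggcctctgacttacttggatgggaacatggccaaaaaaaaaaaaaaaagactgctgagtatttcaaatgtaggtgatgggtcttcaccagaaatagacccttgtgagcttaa

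Windows of all 7 genes, 8 in number because Dbi has 2 starts, were searched on both strands for DR1 written as AGGNCANAGGNCA, for the hexamer AGGTCA and for the TATA letters TATAAA. DR1 was found in 1 window, that of Fabp1, where TGACCTATGGCCT begins 67 bases before the start. Over 32817 promoter windows of the same length, 125 held DR1, a share of 0.381%. The hexamer was found in 3 of the 8 windows and in 16.3% of all windows. It begins 228 bases before the start of Cd36 and 220 before that of Slc27a2, and Fabp1 has it at 67, inside DR1, and again, printed in lower case, at 9. TATAAA was found for Fabp1 alone, 30 bases before the start, and in 13.6% of all windows. A match of letters is a description of the window and not evidence of binding.

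Signals below are the deposited intensities after each array was multiplied by 1 factor that set a trimmed mean of 500 (2% left off either end, control probe sets not counted). The factors were 2.80 and 2.72 for A/J on high-fat and low-fat, and 3.41 and 3.08 for C57BL/6J on high-fat and low-fat. Ratios were taken with signals under 100 set to 100, a floor that 58.5% to 60.3% of probe sets on an array reached. All 13 epithelial markers searched, among them villin (Vil1), Cdh1, Krt20 and Cdx2, were above the floor on all 4 arrays, beside markers of other cell types given below. The summed signal of these markers was 119419 and 120738 in A/J on high-fat and low-fat, and 130353 and 129999 in C57BL/6J on high-fat and low-fat. The C57BL/6J low-fat array stood apart in its 18S ribosomal RNA signal, at 11016 in the 5′ probe set. That probe set gave 84.4 in A/J on high-fat, 218 in A/J on low-fat and 1676 in C57BL/6J on high-fat. The other 18S probe sets put the arrays in the same order. It is the reverse of the order of Cd36, Slc27a2 and Ppara given below, and any part of it in their differences was not tested. The A/J high-fat array stood apart in exocrine pancreas genes, whose summed signal over 7 genes was 2126, against 65999 to 101536 on the other 3. Gastric markers summed to 8313 in C57BL/6J on high-fat and to between 1289 and 2768 elsewhere. In whole mucosa, fewer cells of a type and less RNA per cell cannot be told apart.

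Cd36, which encodes the fatty acid translocase on chromosome 5 (chr5:17781690-17888959, GRCm38.p6, as are the other positions below), differed most among the members between strains, and between diets in A/J. In C57BL/6J its log2 diet ratio of 1.47 was above the 1.38 of Slc27a2, but below it with a floor of 200 (0.86 against 1.38), a pseudocount of 50 (1.19 against 1.34) and the mean of all probe sets (1.23 against 1.38). Its probe set 1423166_at gave a signal of 2892 in A/J on high-fat, 1193 in A/J on low-fat, 364 in C57BL/6J on high-fat and 131 in C57BL/6J on low-fat. Both A/J arrays were above both C57BL/6J arrays, and within each strain the high-fat array was above the low-fat one. The second probe set, 1450883_a_at, gave 2370.2 in A/J on high-fat, 1212 in A/J on low-fat, 580.1 in C57BL/6J on high-fat and 123 in C57BL/6J on low-fat. The third, 1450884_at, was dimmer, with 319 in A/J on high-fat and 139.8 in A/J on low-fat, and it stayed under the floor in C57BL/6J, at 78.8 on high-fat and 30.8 on low-fat. The first and second probe sets thus put the 4 groups in the same order, and the third placed both A/J arrays above the floor and cannot rank the C57BL/6J arrays. The annotation ties all 3 to the same source transcript.

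Expressed as ratios, Cd36 was 2.42-fold higher on high-fat than on low-fat in A/J and 2.77-fold higher in C57BL/6J. The second probe set gave 1.96-fold in A/J and 4.70-fold in C57BL/6J, and the third gave 2.28-fold in A/J and no ratio in C57BL/6J. A/J exceeded C57BL/6J 7.95-fold on high-fat and 9.08-fold on low-fat, and the second probe set gave 4.09-fold on high-fat and 9.82-fold on low-fat. The third set bounds against the floor, at least 3.19-fold for high-fat and at least 1.40-fold for low-fat. The direction was the same in every ratio that could be taken, but the size of the C57BL/6J diet ratio and of the strain ratio on high-fat depended on the probe set. The C57BL/6J diet ratio and the strain ratio on low-fat also rest on C57BL/6J low-fat signals close to the floor. On that array 11987 probe sets were brighter than the first Cd36 probe set and 12303 than the second.

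The mean effects over the 4 arrays were tested with limma, with diet and strain as additive terms, 1 residual degree of freedom and Benjamini-Hochberg adjustment over 8037 genes. Its variances are moderated over all genes, so the SE was much alike for all members, 0.195 to 0.216. That SE does not measure a spread between mice or pools. Cd36 rose on high-fat, with a log2 term of 1.37 ± 0.196 (SE) and a limma adjusted p of 0.00615. Its strain term, A/J over C57BL/6J, was 3.09 ± 0.196 (SE) with a limma adjusted p of 2.68e-06. By p it stood in place 6 of 8037 genes for strain and in place 18 for diet. The diet call was lost with a floor of 50 (limma adjusted p = 0.0799), a floor of 200 (0.472), the mean of all probe sets (0.0828), no filter on signal (0.501) and diet as the sole term (0.9996). The strain call was lost with a floor of 200 (limma adjusted p = 0.234), no filter (0.262) and strain as the sole term (0.0684).

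**Figure D1:**
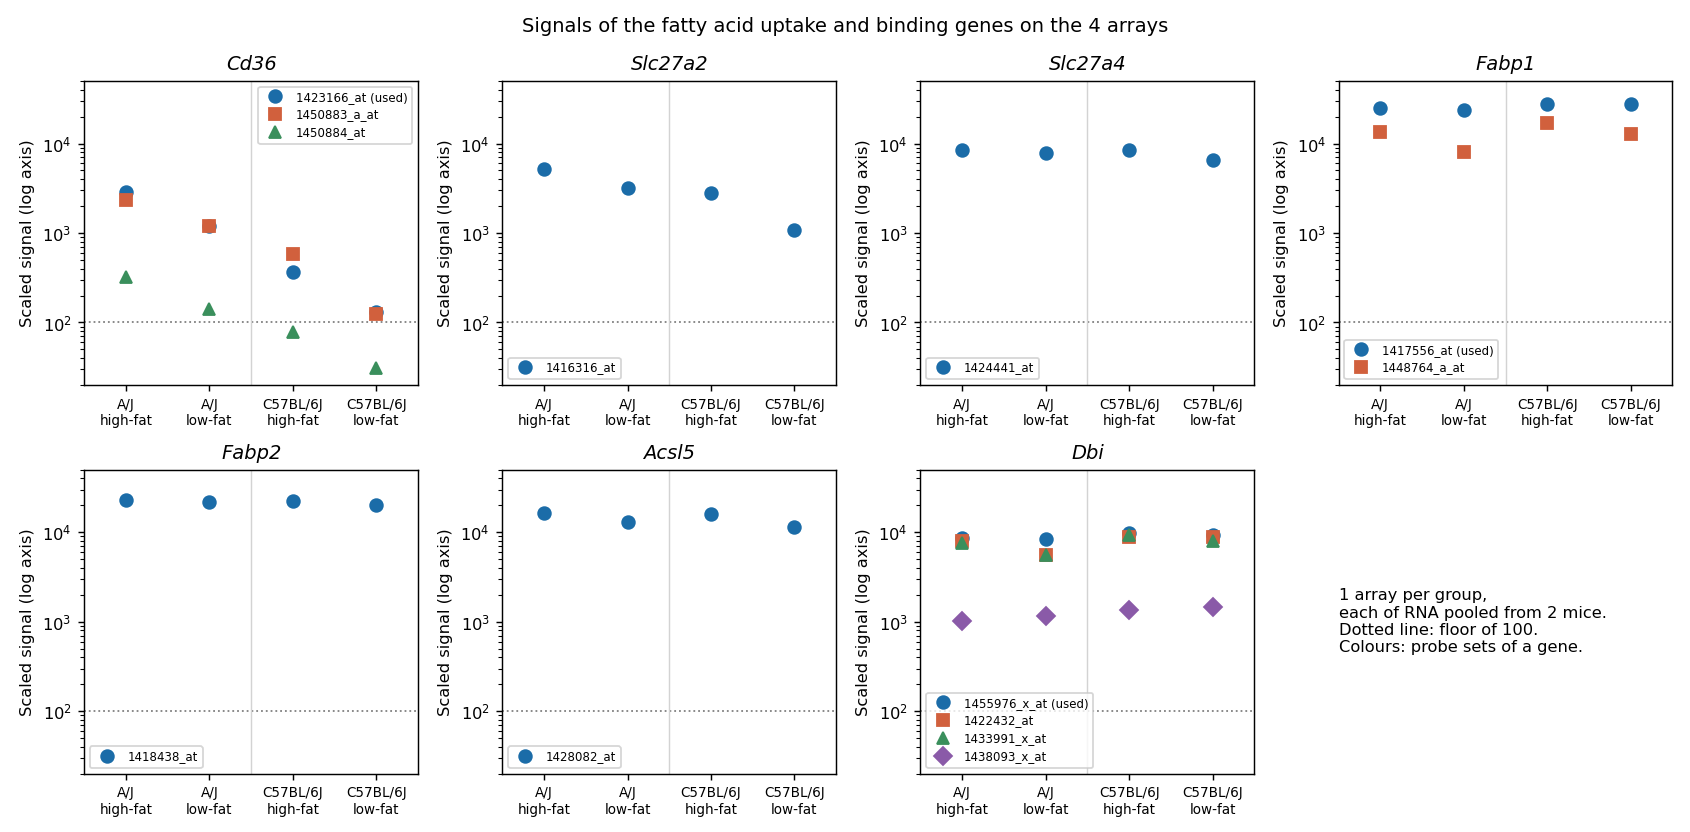
Scaled signal on a log axis for each of the 13 probe sets of the 7 genes, with 1 point per array and the 4 groups along the horizontal axis. Cd36 and Slc27a2 are highest in A/J on high-fat and lowest in C57BL/6J on low-fat, while Slc27a4, Fabp2 and Acsl5 lie nearly level, and only the third Cd36 probe set falls under the dotted floor of 100.

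Slc27a2 (chr2:126553024-126588243), the other member past a threshold, encodes FATP2, a transport protein that also has very long chain acyl-CoA synthetase activity. Its single probe set, 1416316_at, gave a signal of 5258 in A/J on high-fat, 3173 in A/J on low-fat, 2830.2 in C57BL/6J on high-fat and 1091 in C57BL/6J on low-fat. The order of the arrays was that of Cd36, over a narrower span of 4.82-fold from the lowest to the highest against 22.0-fold for Cd36. The signal of C57BL/6J on high-fat was close to that of A/J on low-fat. High-fat exceeded low-fat 1.66-fold in A/J and 2.59-fold in C57BL/6J, and A/J exceeded C57BL/6J 1.86-fold on high-fat and 2.91-fold on low-fat. The limma strain term of Slc27a2 was a log2 ratio of 1.22 ± 0.216 (SE), with an adjusted p of 0.00412. The diet term was 1.05 ± 0.216 (SE) and missed the threshold at a limma adjusted p of 0.0557. It passed with a pseudocount of 50 (limma adjusted p = 0.00819) and with an intensity trend in the variances (limma adjusted p = 0.000768). The strain call was lost with a floor of 200 (limma adjusted p = 0.344), no filter (0.510) and strain as the sole term (0.270). The larger ratios of Slc27a2 both use the array with the highest 18S signal, and the ratios that do not use it are the 1.66-fold and the 1.86-fold. For Cd36 the ratios without that array are 2.42-fold for diet and 7.95-fold for strain. Without the array poor in pancreas genes, the diet and strain ratios were 2.59-fold and 2.91-fold for Slc27a2, and 2.77-fold and 9.08-fold for Cd36. Every comparison uses the array with the highest 18S signal or the array poor in pancreas genes, so none is free of both. The strain ratios on high-fat also set arrays side by side whose 18S signals in the 5′ probe set were 84.4 for A/J and 1676 for C57BL/6J.

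Slc27a4 (chr2:29802634-29817522) encodes FATP4, a major fatty acid transport protein of the enterocyte. Its probe set, 1424441_at, gave a signal of 8577 in A/J on high-fat, 7796 in A/J on low-fat, 8396 in C57BL/6J on high-fat and 6559 in C57BL/6J on low-fat. High-fat was 1.10-fold above low-fat in A/J and 1.28-fold above it in C57BL/6J, and A/J was 1.02-fold above C57BL/6J on high-fat and 1.19-fold on low-fat. Neither term passed, with a diet change of 0.25 (SE 0.197, limma adjusted p = 0.805) and a strain difference of 0.14 (SE 0.197, limma adjusted p = 0.746). The genes of both transport proteins thus read differently, with a span over the arrays of 4.82-fold for Slc27a2 and 1.31-fold for Slc27a4.

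Among the binding proteins, Fabp2 (chr3:122895072-122899506, probe set 1418438_at) was nearly level, at 23156 in A/J on high-fat, 22012 in A/J on low-fat, 22569.5 in C57BL/6J on high-fat and 20139 in C57BL/6J on low-fat. The highest of these is 1.15-fold the lowest. This probe set was among the brightest of each array, with 18, 25, 33 and 50 probe sets brighter on A/J high-fat, A/J low-fat, C57BL/6J high-fat and C57BL/6J low-fat, and whether it could still register an increase was not tested. The diet term was 0.12 (SE 0.195, limma adjusted p = 0.930) and the strain term 0.083 (SE 0.195, limma adjusted p = 0.860).

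The probe sets of Fabp1 (chr6:71199879-71205034) gave different pictures. The brighter one, 1417556_at, which stands for the gene, gave 25147 in A/J on high-fat, 23668 in A/J on low-fat, 27900.0 in C57BL/6J on high-fat and 27366 in C57BL/6J on low-fat, with high-fat 1.06-fold above low-fat in A/J and 1.02-fold in C57BL/6J. The other, 1448764_a_at, gave 13623 and 8085 in A/J on high-fat and low-fat and 17127 and 12949 in C57BL/6J on high-fat and low-fat, a diet ratio of 1.68-fold and 1.32-fold. Both placed high-fat above low-fat and A/J below C57BL/6J, but the sizes differed. The brighter probe set lay near the upper end of the arrays' range, with 9, 14, 10 and 15 probe sets brighter on A/J high-fat, A/J low-fat, C57BL/6J high-fat and C57BL/6J low-fat. For the brighter probe set the diet term was 0.058 (SE 0.195, limma adjusted p = 0.968) and the strain term -0.18 (SE 0.195, limma adjusted p = 0.663), and without scaling between arrays both changed sign, as the strain term did with quantile normalization too. Whether the brighter probe set could still register an increase was not tested, and limma was not run on the other probe set alone. Fabp1 is the member with DR1 letters in its window, and any part of that site in its ratios was not tested.

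Acsl5 (chr19:55251861-55296628), the acyl-CoA synthetase, gave in its probe set 1428082_at a signal of 16405 in A/J on high-fat, 13079.8 in A/J on low-fat, 15870.0 in C57BL/6J on high-fat and 11417 in C57BL/6J on low-fat. Both high-fat arrays were above both low-fat arrays, by 1.25-fold in A/J and 1.39-fold in C57BL/6J, while the strains differed by 1.03-fold on high-fat and 1.15-fold on low-fat. The diet term was 0.40 (SE 0.196) with a limma adjusted p of 0.575, and an unadjusted p of 0.0627. The strain term was 0.12 (SE 0.196, limma adjusted p = 0.781). The diet term of Acsl5 was thus above its strain term, but without scaling between arrays it was below it, at 0.30 against 0.35.

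Dbi (chr1:120113280-120121096) is read by 4 probe sets. The brightest, 1455976_x_at, gave 8531 in A/J on high-fat, 8346 in A/J on low-fat, 9716 in C57BL/6J on high-fat and 9295 in C57BL/6J on low-fat. Probe sets 1422432_at and 1433991_x_at read 8031 and 7605 in A/J on high-fat, against lower signals of 5583 and 5603 in A/J on low-fat. In C57BL/6J they read 8942 and 9391 on high-fat and 8917 and 7950 on low-fat. The dimmest, 1438093_x_at, gave 1028 and 1155 in A/J on high-fat and low-fat, and 1348 and 1457 in C57BL/6J on high-fat and low-fat. All 4 placed A/J below C57BL/6J on both diets, by log2 ratios of -0.39 to -0.15 on high-fat and -0.68 to -0.16 on low-fat, but in the brightest the strain term became positive, at 0.059, without scaling between arrays. For diet they disagreed in sign, with log2 ratios of -0.17 to 0.52 in A/J and -0.11 to 0.24 in C57BL/6J. In the brightest probe set the diet term was 0.048 (SE 0.195, limma adjusted p = 0.974) and the strain term -0.17 (SE 0.195, limma adjusted p = 0.681).

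**Figure D2:**
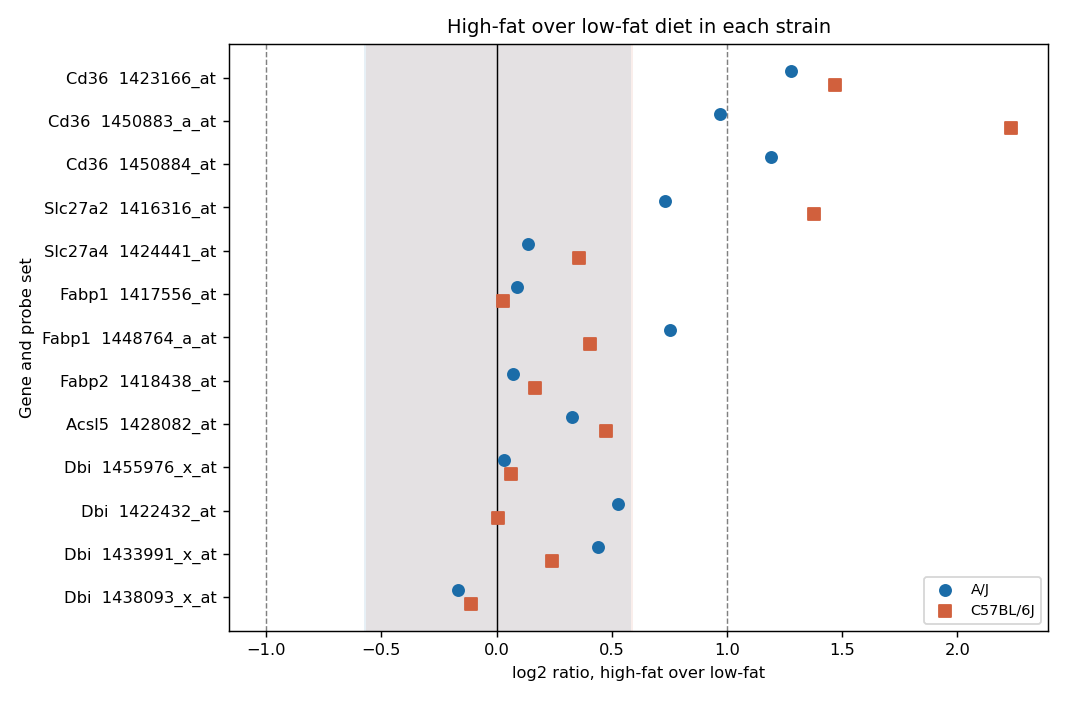
Log2 ratio of high-fat over low-fat signal for each probe set, with circles for A/J and squares for C57BL/6J, dashed lines at 2-fold and 1 shaded band per strain from the 5th to the 95th percentile of all 8037 genes. Cd36 and Slc27a2 lie right of the shading in both strains, a Fabp1 probe set does so in A/J, and the third Cd36 probe set has no C57BL/6J point because both signals were under the floor.

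Counted over the set, with each gene read by its brightest probe set, all 7 members had a higher signal on high-fat than on low-fat in A/J and all 7 in C57BL/6J. The diet terms of Fabp1 and Dbi turned negative without scaling between arrays, and with centring on epithelial markers Dbi in A/J did (-0.00011). Among all genes the shares above 0 were 50.9% for A/J and 48.1% for C57BL/6J. The members share arrays and are not replicates, and for Fabp1 and Dbi the ratio was 1.02-fold to 1.06-fold. They were chosen with earlier results of these data known, so the counts here are not a test of the set. At 2-fold, 1 of 7 members was higher in A/J (Cd36, where 0.796% of all genes were) and 2 of 7 in C57BL/6J (Cd36 and Slc27a2, where 1.02% were). At least 2-fold lower were 0 members in A/J, where 1.05% of all genes were, and 0 in C57BL/6J, where 0.672% were. The members' median log2 diet ratio was 0.14 for A/J and 0.36 for C57BL/6J, beside 0.0064 for A/J and -0.0067 for C57BL/6J over all genes. By limma, 1 of 7 rose with diet (Cd36), where 0.423% of all genes did. The difference between the strains' diet ratios is the error term of that fit and so has no test. It was -0.19 for Cd36 and -0.65 for Slc27a2, A/J minus C57BL/6J on the log2 scale, both between the 5th and 95th percentiles of all genes, -0.75 and 0.74. In the second Cd36 probe set it was -1.27, outside that range.

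Between strains, 5 of 7 members had a higher signal in A/J on each diet, where 54.4% of all genes did on high-fat and 52.0% on low-fat. Fabp1 and Dbi had a lower one, although the limma strain terms of both turned positive without scaling between arrays. With quantile normalization the A/J over C57BL/6J log2 ratio of Fabp1 was positive on both diets (0.020 on high-fat and 0.077 on low-fat), and that of Dbi on low-fat was positive with it (0.031) and with centring on epithelial markers (0.013). At 2-fold, 1 of 7 was higher in A/J on high-fat (Cd36, where 1.93% of all genes were) and 2 of 7 on low-fat (Cd36 and Slc27a2, where 3.0% were). At least 2-fold lower in A/J were 0 members on high-fat, where 2.38% of all genes were, and 0 on low-fat, where 2.64% were. Slc27a2 also passed 2-fold on high-fat without scaling between arrays, and when signals were centred on the epithelial markers. By limma, 2 of 7 members were higher in A/J (Cd36 and Slc27a2), where 3.88% of all genes were. The median log2 strain ratio of the members was 0.037 on high-fat and 0.20 on low-fat, beside 0.039 and 0.024 over all genes. The strain comparisons use the same 4 arrays as the diet comparisons. They also use the same members, chosen with earlier results known, so these counts are not a test of the set either.

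**Figure D3:**
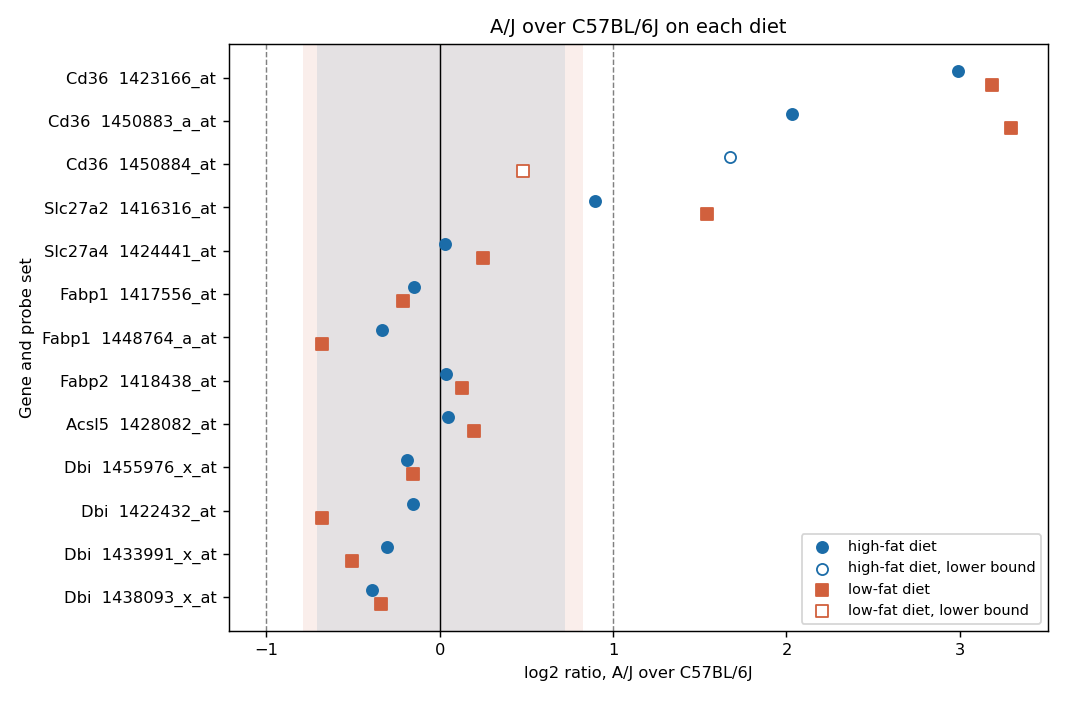
Log2 ratio of A/J over C57BL/6J signal for each probe set, with circles for the high-fat and squares for the low-fat diet, dashed lines at 2-fold and 1 shaded band per diet from the 5th to the 95th percentile of all 8037 genes. Cd36 and Slc27a2 lie to the right of the shading, except for the third Cd36 probe set on low-fat, whose hollow marks are lower bounds, and the other 5 genes lie within it.

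Other genes of uptake, binding and activation were taken from a wider list of 24, of which 18 were found on the array and 10 had a mean signal of at least 100. The 10 include genes that do not serve long-chain fatty acids, among them the retinol binding protein gene Rbp2 and the acetyl-CoA synthetase gene Acss2. By limma 0 of the 10 changed with diet or with strain, where 0.61% and 7.57% of all genes did, and at an unadjusted threshold of 0.05 the numbers over all genes were 752 and 1727. The log2 diet ratios of the 10 ran from -1.05 to 0.20 (Acss2) with a median of 0.070 for A/J, and from -0.53 to 0.72 (Rbp2) with a median of 0.29 for C57BL/6J. Their median strain ratios were 0.099 on high-fat and 0.40 on low-fat. Those at least 2-fold in some comparison were Fabp4, the fatty acid binding protein of adipocytes and of capillary endothelium, and Cav1, a coat protein of caveolae. Fabp4 gave 242 in A/J on high-fat, 404 in A/J on low-fat, 308 in C57BL/6J on high-fat and 195 in C57BL/6J on low-fat. Cav1 gave 184 in A/J on high-fat, 381 in A/J on low-fat, 261 in C57BL/6J on high-fat and 182 in C57BL/6J on low-fat. Both were highest in A/J on low-fat, the second highest array for Cd36, and both had a lower signal in A/J on high-fat, where Cd36 was highest. Cav1 was 2.07-fold lower on high-fat in A/J, and on low-fat A/J exceeded C57BL/6J 2.09-fold for Cav1 and 2.08-fold for Fabp4, which with the mean of all probe sets had a log2 ratio of 0.26.

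CD36 is also made by adipocytes, macrophages and capillary endothelium, so their markers were read beside it. The 9 macrophage markers summed to 7711 in A/J on high-fat, 6678 in A/J on low-fat, 7003 in C57BL/6J on high-fat and 6542 in C57BL/6J on low-fat. The 7 endothelial markers, 5 of them with a mean of at least 100, summed to 1339 in A/J on high-fat, 1579 in A/J on low-fat, 1241 in C57BL/6J on high-fat and 1223 in C57BL/6J on low-fat. The 5 adipocyte markers on the array, 3 of them with a mean of at least 100, summed to 2243 in A/J on high-fat, 1864 in A/J on low-fat, 2405 in C57BL/6J on high-fat and 1930.1 in C57BL/6J on low-fat. Most of that sum came from Lipe and Cidec, at 1054 and 1038 in A/J on high-fat. Cidec was higher on high-fat, 1.35-fold in A/J and 1.92-fold in C57BL/6J. The defining markers Adipoq and Lep were under the floor on all 4 arrays. From the lowest to the highest array the sums spanned 1.18-fold for macrophages and 1.29-fold each for endothelium and adipocytes, and the part of these cells in the Cd36 differences was not tested. Within the sum, the endothelial gene Tek was called for strain (log2 1.25, SE 0.219, limma adjusted p = 0.00388), in the same direction as Cd36. Tek was above the floor in A/J alone, at 187 on high-fat and 304 on low-fat, so its term is a lower bound. It is named, like Cubn, Des and Krt18 below, after its values were seen. The strain terms of the other measured endothelial markers ran from -0.16 (Emcn) to 0.40 (Pecam1), and none was called. The 6 absorptive enterocyte markers found summed to 67855 in A/J on high-fat, 72276 in A/J on low-fat, 63670.4 in C57BL/6J on high-fat and 63433 in C57BL/6J on low-fat. The 9 markers of regions along the intestine that were found, 6 of them with a mean of at least 100, summed to 21094 in A/J on high-fat, 24986 in A/J on low-fat, 16619 in C57BL/6J on high-fat and 16336 in C57BL/6J on low-fat. Among them Cubn, the gene of the uptake receptor cubilin, was higher in A/J, 2.93-fold on high-fat and 4.35-fold on low-fat (limma strain term 1.83, SE 0.211, adjusted p = 0.00019). It was the only 1 of the 6 that limma called for strain, and the strain terms of the others ran from -0.083 (Gata4) to 0.52 (Cybrd1). Lct, also counted among the enterocyte markers, gave 13214 of the sum in A/J on high-fat. Fgf15, Slc10a2 and Fabp6 were under the floor on all 4 arrays. The part of these markers in the strain difference of Cd36 was not tested. The 6 smooth muscle markers summed to 1749 in A/J on high-fat, 2612 in A/J on low-fat, 1543 in C57BL/6J on high-fat and 1647 in C57BL/6J on low-fat. Of these Des was called for strain, higher in A/J (limma log2 1.41, SE 0.195, adjusted p = 0.000691). In C57BL/6J it was under the floor, at 28.0 on high-fat and 69.5 on low-fat, so its term is a lower bound. Of the epithelial markers Krt18 alone was called for strain, lower in A/J (limma log2 -0.75, SE 0.205, adjusted p = 0.0443). The strain terms of the other epithelial markers ran from -0.44 (Cdx1) to 0.63 (Cdx2). The 5 hepatocyte markers found summed to 172 to 329 over the 4 arrays, with Alb under the floor on each.

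Ppara, which encodes PPAR-alpha, gave a signal of 542 in A/J on high-fat, 387 in A/J on low-fat, 293 in C57BL/6J on high-fat and 203 in C57BL/6J on low-fat, the same order of groups as Cd36 and Slc27a2. Its strain term was a log2 ratio of 0.91 ± 0.195 (SE) with a limma adjusted p of 0.0135, and its diet term of 0.51 did not pass (SE 0.195, limma adjusted p = 0.417). The strain call was lost with a floor of 200 (limma adjusted p = 0.230), no filter (0.255) and strain as the sole term (0.169). Pparg, the gene of the related receptor PPAR-gamma, gave 190.1 in A/J on high-fat, 119 in A/J on low-fat, 182 in C57BL/6J on high-fat and 49.8, under the floor, in C57BL/6J on low-fat. Its diet term of 0.77 was the largest of the group and did not pass (SE 0.196, limma adjusted p = 0.149). The RXR partner genes Rxra and Rxrb had diet terms of 0.29 and 0.65 (limma adjusted p = 0.757 and 0.232), and the coactivator gene Ppargc1a one of -0.48 (limma adjusted p = 0.458). The coactivator Ncoa1 and the nuclear receptor Hnf4a, which also binds DR1, had diet terms of -0.26 and -0.097 (limma adjusted p = 0.788 and 0.947). Of the 7 measured genes of this group, 1 (Ppara) passed for strain, where 7.57% of all genes did, and 0 for diet, where 0.61% did.

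Genes with the pattern nearest to a member over the 4 arrays were sought for Cd36 and Slc27a2, the members that span at least 2-fold. Likeness was the root mean square difference of log2 signals, each centred on the gene's own mean, among 7226 other genes above the floor on all arrays. The 5 nearest to Slc27a2 were Acadl, a mitochondrial acyl-CoA dehydrogenase for long chains, at 0.058, the carbonic anhydrase Car4 at 0.14, the retinaldehyde dehydrogenase Aldh1a1 at 0.15, the mitochondrial thiolase Acaa2 at 0.17 and the steroid dehydrogenase Hsd3b3 at 0.17. Acadl gave 7284 in A/J on high-fat, 4745 in A/J on low-fat, 3975 in C57BL/6J on high-fat and 1662 in C57BL/6J on low-fat. Those nearest to Cd36 were farther off, namely Slc5a4b, a member of the sodium-glucose cotransporter family, at 0.39, the membrane progestin receptor gene Paqr7 at 0.54, the alcohol dehydrogenase Adh4 at 0.55, Bbox1, an enzyme of carnitine synthesis, at 0.56 and Abhd1 at 0.58. Slc5a4b gave 2517 in A/J on high-fat, 1377 in A/J on low-fat, 557 in C57BL/6J on high-fat and 229.8 in C57BL/6J on low-fat. The measure was not scaled to a gene's span, 22.0-fold for Cd36 against 4.82-fold for Slc27a2, so their distances are not directly comparable. Genes under the floor on any array were not compared. With 4 arrays such likeness describes these pools only.

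**Figure D4:**
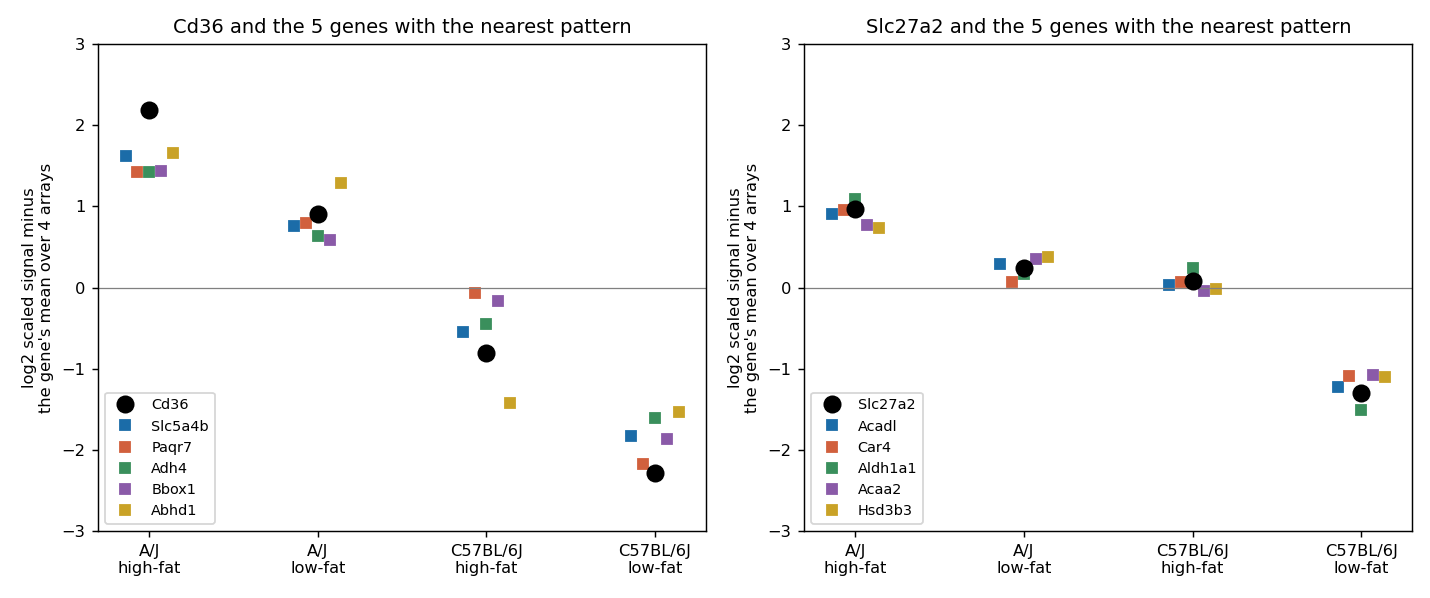
Log2 scaled signal, centred on each gene's mean over the 4 arrays, for Cd36 and Slc27a2 (black circles) and the 5 genes nearest to each (coloured squares). The squares lie close to the circle on every array for Slc27a2, whereas Cd36 is above its neighbours in A/J on high-fat and below them in C57BL/6J on low-fat.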

How the data were processed

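Total RNA was labelled as biotinylated cRNA and hybridised to Mouse Expression Array 430A, and per the labels' protocols Microarray Suite 5.0, at default settings, gave the deposited intensity of each probe set by comparing perfect match with mismatch probes. The sources used here name no scaling target. Each array was scaled to a trimmed mean of 500 (2% trimmed at each end, 64 control probe sets left out), signals under 100 were set to 100 and log2 was taken. Of the probe sets, 20380 name 1 gene, 691 several and 1555 none by the platform annotation, and those with 1 gene were used. A gene was read by its probe set with the highest mean signal, and 8037 genes with a mean of at least 100 were tested. A pair of arrays was compared by ratio, called at 2-fold with no test. The additive terms diet and strain came from limma 3.58.1 (R 4.3.3). It was also run on simulated independent noise with diet changes, but with no strain effect and no strain-by-diet difference. Such a simulation cannot show how far calls from these unreplicated arrays hold. The limma p-values rest on 1 residual degree of freedom, the strain-by-diet difference, and on moderated variances, not on replicate pools. The number of arrays limits the precision. Python 3.11.15 was used for other steps. Members and lists were chosen with earlier results of these data known. All members were named, with list genes at least 2-fold in any comparison, the measured PPAR genes, and the 5 genes nearest in pattern to each member that spans 2-fold. The alternatives were quantile normalization, no scaling, centring on epithelial markers, floors of 50 and 200, a pseudocount of 50, the mean of all probe sets, leaving out probe sets whose names end in _s_at or _x_at, no filter, a variance trend, 1 factor only, and leaving out each array.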

Additional observations from a re-analysis of the deposited data

Results flagged for a closer look

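Cav1 and Fabp4, of the wider list, had diet ratios of opposite sign in A/J and C57BL/6J, and the differences were not tested. The log2 ratio of high-fat over low-fat for Cav1 was -1.05 for A/J against 0.52 for C57BL/6J, a difference of -1.57. For Fabp4 the ratios were -0.74 for A/J against 0.66 for C57BL/6J, a difference of -1.40. With the mean of all probe sets the Fabp4 ratios were -0.19 for A/J against 0.17 for C57BL/6J. The strain ratios of the same 4 arrays show the same difference, as the A/J over C57BL/6J log2 ratio of Cav1 was -0.50 on high-fat and 1.06 on low-fat, and that of Fabp4 -0.35 on high-fat and 1.05 on low-fat. Endothelial markers also summed lower in A/J on high-fat than on low-fat, at 1339 against 1579, as did smooth muscle markers, at 1749 against 2612. In C57BL/6J the endothelial sum was 1241 on high-fat against 1223 on low-fat and the smooth muscle sum 1543 against 1647, and the part of either was not tested. With the reported scaling, the diet ratio had the same sign in both strains for each of the 7 members. Without scaling, that of Fabp1 was 0.043 for A/J against -0.12 for C57BL/6J, and with centring on epithelial markers that of Dbi was -0.00011 for A/J against 0.069 for C57BL/6J.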

How the results depend on the processing

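Of 320 alternative log2 ratios of the members, Fabp4, Cav1 and Ppara, 315 stayed within 1.5-fold of the reported value and 5 moved further. Of these, 1 was Fabp4 for strain on low-fat (0.26 with the mean of all probe sets), and the others were Cd36. The C57BL/6J diet ratio of Cd36 was 0.86 with a floor of 200, so that only 1 member (Slc27a2) passed 2-fold there. Cd36 for strain was 2.23 on high-fat and 2.32 on low-fat with the mean of all probe sets, and 2.58 on low-fat with a floor of 200. On high-fat, 2 members passed 2-fold between strains without scaling, and 2 with centring on epithelial markers. Members called for diet numbered 1 by the reported fit, 2 with a pseudocount of 50, 2 with a variance trend, and 0 with a floor of 50 or 200, the mean of all probe sets, no filter or 1 factor. Members called for strain numbered 2, and 0 with a floor of 200, no filter or 1 factor. Leaving out each array, in a fit with 1 factor, gave 0 to 0 members for diet and 0 to 0 for strain, where limma called 0 to 15 and 0 to 0 of all genes and 126 to 275 and 772 to 1013 passed an unadjusted 0.05. Limma terms turned for Fabp1 for diet (-0.039 without scaling), Dbi for diet (-0.049 without scaling), Fabp1 for strain (0.049 with quantile normalization and 0.051 without scaling) and Dbi for strain (0.059 without scaling). Single ratios of Fabp1 and Dbi near 0 turned too, under no scaling, quantile normalization or centring. The cause was not tested.

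Over all genes limma called 49 for diet. It called 21 with quantile normalization, 20 without scaling, 22 with centring, 12 and 0 with floors of 50 and 200, 103 with a pseudocount, 9 with the mean of all probe sets, 22 without _s_at and _x_at probe sets, 0 without a filter, 123 with a trend and 0 with 1 factor. For strain it called 608, and 339 and 0 with floors of 50 and 200, 387 with the mean of all probe sets, 0 without a filter and 144 with 1 factor. At unadjusted 0.05 the settings with 0 calls had 825, 979 and 213 genes for diet and 1316 and 1435 for strain. With a floor of 200, 87 genes against 148 passed 2-fold for diet in A/J and 81 against 136 in C57BL/6J. Without scaling the median of all genes shifted to 0.32 for strain on high-fat, 0.20 on low-fat and -0.15 for diet in C57BL/6J, and with centring to 0.17 and 0.19 for strain. Genes at least 2-fold higher and lower were then 384 and 120 without scaling and 252 and 151 with centring, against 155 and 191, for strain on high-fat. They were 401 and 154, and 399 and 154, against 241 and 212, for strain on low-fat. For diet in C57BL/6J they were 60 and 100 without scaling, against 82 and 54. By limma for strain they were 622 and 144, and 456 and 171, against 312 and 296. No paired analysis was possible because the labels give no replicate numbers and each group has 1 array. The reported fit already holds strain as a term beside diet.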
